A study of Saccharomyces cerevisiae with 10 samples.

Results

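The cytosolic ribosomal protein genes of budding yeast were followed in 5 strains that differ in the histone methyltransferase genes SET1 and SET5. They were taken as all genes whose standard symbol is RPL or RPS with a number and an optional A or B, together with RPP0, RPP1A, RPP1B, RPP2A and RPP2B. That rule gave 137 genes, of which 135 were among the 6663 features of the table. RPL41A and RPL41B were not analysed here. The 135 genes comprise 79 of the large subunit and 56 of the small subunit, and encode 77 proteins, of which 19 come from a single gene and 58 from a pair of paralogues that were both measured. All 135 passed the filter on low values (1 FPKM or more on average), and 0 of them were listed at 0 in any strain.

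Ribosomal proteins assemble with ribosomal RNA into the small subunit, which decodes mRNA, and the large subunit, which joins amino acids and holds the exit tunnel and the stalk that recruits elongation factors. In growing yeast their mRNAs are short, very abundant and made at a balanced rate, and their transcription is known to follow nutrients through the TOR pathway by way of Rap1, Fhl1, Ifh1, Sfp1 and Hmo1 at the promoters. Most ribosomal protein genes of Saccharomyces cerevisiae exist as A and B copies left from an ancient genome duplication, and the copies encode identical or nearly identical proteins. Many carry an intron, and in several cases the protein is known to regulate the splicing or decay of its own mRNA.

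All strains were haploid cells of the BY4741 background, collected in mid-log phase from YPD, a rich glucose medium kept at 30 °C. The tested strains were set1∆, without the methyltransferase that modifies a lysine in the tail of histone H3; set5∆, without a methyltransferase of histone H4; SET5 Y402A, in which Set5 carries a substitution; and set1∆ set5∆, without both genes. WT, with both genes intact, was the strain they were set against. Each strain had 2 biological replicates per the labels, 10 libraries in all, but the table holds 1 combined FPKM per gene and strain, a level scaled to transcript length and library size. How the strains were made, and how many clones each stands for, is not stated. The spread between replicates and the depth are therefore unknown, no test was run, and each ratio describes these 5 columns alone. SET1 stood at 0.0328 and 0.0324 FPKM in set1∆ and set1∆ set5∆, against 24.2 in set5∆, 25.6 in SET5 Y402A and 24.3 in WT. SET5 stood at 0.0545 and 0.0167 FPKM in set5∆ and set1∆ set5∆, against 37.8 in set1∆, 41.8 in SET5 Y402A and 34.6 in WT, so both genes followed the labels. The sum of FPKM over all features ranged between 2056298 in set1∆ set5∆ and 2426410 in set5∆. The 135 genes held 31.8% of that sum in set1∆, 31.4% in set5∆, 31.4% in SET5 Y402A and 29.7% in set1∆ set5∆, against 31.9% in WT.

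Levels differed widely among the ribosomal protein genes. Their median level was 4224 FPKM in set1∆, 4591 in set5∆, 4509 in SET5 Y402A and 3683 in set1∆ set5∆, against 4528 in WT, where the median of all features in the table was 42.7 FPKM. The highest level belonged to RPL29, which encodes a small dispensable protein of the large subunit, with 28487 FPKM in set1∆, 29589 in set5∆, 31442 in SET5 Y402A and 24249 in set1∆ set5∆, against 27863 in WT. RPS30A, RPS28A, RPS29A and RPS29B of the small subunit followed in WT, with 20511 to 23721 FPKM. These 5 genes have coding lengths of 171 to 204 bases, and FPKM of very short genes depends strongly on the length correction. The lowest levels were all in paralogue pairs, in RPL43A, RPL15B, RPL22A, RPL7B and RPS9A. RPL28, known as the site of cycloheximide resistance mutations, had the lowest level among single-copy genes, with 807 FPKM in set1∆, 901 in set5∆, 869 in SET5 Y402A and 676 in set1∆ set5∆, against 897 in WT. Genes shorter than 300 bases (n = 17) had a median of 11727 FPKM in WT, those from 300 to under 600 bases (n = 86) 4551 FPKM and those of at least 600 bases (n = 32) 3770 FPKM.

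The ribosomal protein genes had lower deposited values in set1∆ set5∆ than in WT almost without exception, and by a similar small amount, but the size of that difference, and for many genes its sign, depended on how the strains were scaled to each other. The ratios below are log2((FPKM + 1) / (reference FPKM + 1)), so that -1 is a 2-fold lower value, and the smaller threshold used here, 0.32 on this scale, is a value 20% lower or 25% higher. In set1∆ set5∆ against WT 133 of the 135 genes were lower and 2 higher as deposited, 124 lower and 11 higher after rescaling every strain to the same total, and 76 lower and 47 higher with quantile-normalized values. The deposited values gave a median log2 ratio of -0.30 over the genes, against 0.01 over the 6541 features compared. At least 20% lower were 61 genes, or 45.2%, against 12.8% of all features. At least 25% higher was 0, against 18.6% of all features. No gene of the 135 was 2-fold lower or higher, thresholds that 0.52% and 2.83% of all features passed.

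RPL22B, in these strains the more abundant copy for a dispensable protein of the large subunit, had the lowest ratio. It stood at 511 FPKM in set1∆, 643 in set5∆, 657 in SET5 Y402A and 434 in set1∆ set5∆, against 763 in WT, a log2 ratio of -0.81 in set1∆ set5∆. RPS9A, the scarce copy for a small-subunit protein linked to decoding accuracy, had 371 FPKM in set1∆, 516 in set5∆, 449.9 in SET5 Y402A and 331 in set1∆ set5∆, against 559 in WT, a log2 ratio of -0.75 in set1∆ set5∆. Both genes were lower in all 4 mutant strains than in WT, and lowest in set1∆ set5∆. RPL7B, also a scarce copy, stood at 356 FPKM in set1∆, 409.7 in set5∆, 396 in SET5 Y402A and 280.0 in set1∆ set5∆, against 471 in WT, a log2 ratio of -0.75 in the double deletion. The abundant copy RPL9A, for a protein near the base of the stalk, was at 3120 FPKM in set1∆ set5∆ against 4528 in WT (log2 ratio -0.54), and RPL8A at 1376 against 1960 FPKM (-0.51). These 5 genes were also lower than in WT under each other scaling tried. The only 2 higher genes were RPL15B, at 110.4 against 97.4 FPKM, and RPL43A, at 16.1 against 14.9 FPKM, whose log2 ratio was 0.11 as deposited and -0.01 with quantile-normalized values. Both are the minor copy of their pair.

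The spread around that median was narrow for the abundant genes. Of the 127 ribosomal protein genes with at least 1000 FPKM in WT, all 127 had lower deposited values in set1∆ set5∆, with log2 ratios between -0.54 and -0.06 and an SD over genes of 0.08. The 131 other coding genes of at least 1000 FPKM in WT, a group added after the values were seen, had a median of -0.23 and an SD over genes of 0.34, with ratios between -1.32 and 0.78, and 108 of the 131 were lower. The median of those abundant genes was thus also below 0, over a wider range of ratios. The value of RPL3, which lies at the peptidyl transferase centre, shows the size of the typical difference, with 5241 FPKM in set1∆, 5656 in set5∆, 5521 in SET5 Y402A and 4819.5 in set1∆ set5∆, against 5731 in WT.

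The count of genes past the smaller threshold depended on the scaling. When every strain was rescaled to the same total, the median of all features moved to 0.20 in set1∆ set5∆ against WT, a shift of 0.20, and that of the ribosomal protein genes to -0.10. At least 20% lower were then 4 genes, or 2.96%, below the 4.18% of all features, and at least 25% higher was 1, against 34.7% of all features. With quantile-normalized values, which force the same distribution on every strain, the median of the ribosomal protein genes was -0.02 and that of all features -0.03, with 4 genes, or 2.96%, at least 20% lower, against 14.9% of all features. The count of 61 genes, above the share of all features, was thus found with the deposited scaling and not with these 2. Rescaling to totals multiplies a strain by 1 factor and so leaves the distance between the medians nearly fixed, while quantile normalization brought them together. The counts past these thresholds and the directions of single genes given for a strain pair hold for the deposited scaling unless another is named, and the ratios within a strain given further on (A against B copies) do not depend on a rescaling to totals, although they do on quantile normalization.

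**Figure D1:**
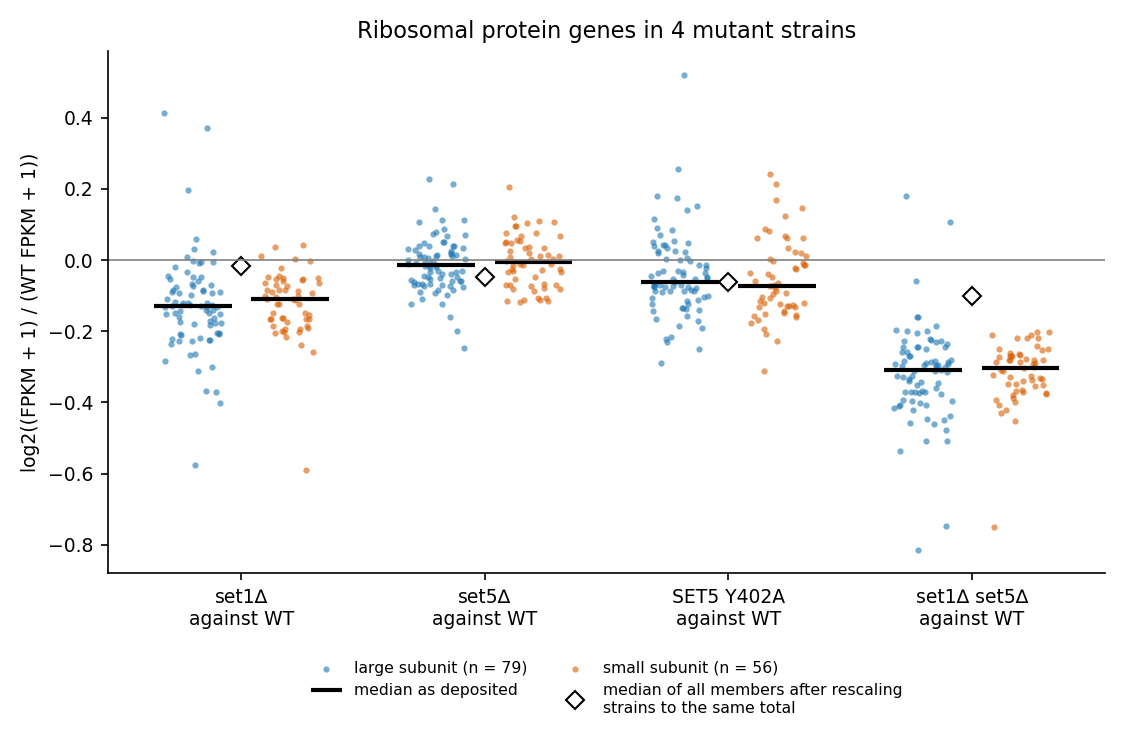
Log2 ratio of FPKM + 1 to WT (y axis) for each ribosomal protein gene in 4 mutant strains (x axis), with 79 large-subunit genes in blue left of 56 small-subunit genes in orange, bars at the median of each subunit and open diamonds at the median of all 135 genes after rescaling strains to the same total. Nearly all points of set1∆ set5∆ lie below 0, with a median of -0.30 as deposited and -0.10 after rescaling, while those of set5∆ are spread around 0.

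In set1∆ against WT the deposited values were lower by less, and 124 genes were lower and 11 higher, but 78 lower and 57 higher after rescaling to the same total and 69 lower and 55 higher with quantile-normalized values. The median log2 ratio was -0.12 over the 135 genes, against -0.00 over all features. At least 20% lower were 5 genes, or 3.70%, a smaller share than the 10.4% of all features, and at least 25% higher were 2 genes, against 16.3% of all features. None was past 2-fold, which 0.489% of all features were in the lower and 2.37% in the higher direction. The 5 lower genes were RPS9A (log2 ratio -0.59), RPL22B (-0.58), RPL7B (-0.40), RPL9A (-0.37) and RPL4A (-0.37), which encodes a protein that lines the exit tunnel. The 2 higher genes were RPL43A, for a zinc-binding protein of the large subunit, at 20.2 FPKM in set1∆ against 14.9 in WT (log2 ratio 0.41), and RPL15B, for a core protein of the large subunit, at 126 against 97.4 FPKM (0.37). RPL9B, the minor copy of its pair, had the third highest ratio, at 1654 FPKM in set1∆ against 1442 in WT (0.20). These 8 genes kept their direction under every scaling tried. Rescaled to the same total, the all-feature median moved to 0.10 and that of the ribosomal protein genes to -0.02.

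In set5∆ the ribosomal protein genes were spread around their WT levels. In set5∆ against WT 74 genes were lower and 61 higher as deposited, and 99 lower and 36 higher after rescaling to the same total, with median log2 ratios of -0.01 and -0.05. None was 20% lower or 25% higher as deposited, thresholds that 3.64% of all features passed in the lower and 6.31% in the higher direction. None reached 2-fold, which 0.581% and 0.994% of all features did in those directions. The extremes were again minor copies or the RPL22 pair, with RPL22B at -0.25 and RPL7B at -0.20 at the low end and RPL43A at 0.23 and RPL15B at 0.22 at the high end. RPS30B, for a very short protein of the small subunit, followed at 0.21, with 18304 FPKM in set5∆ against 15859 in WT.

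In SET5 Y402A against WT the ratios had a somewhat wider range. Of the 135, 96 were lower and 39 higher, with a median log2 ratio of -0.06 against -0.01 for all features. None was at least 20% lower, against 5.55% of all features, and 1 was at least 25% higher, against 9.88%. No ribosomal protein gene was past 2-fold, a threshold that 0.321% of all features passed in the lower and 1.83% in the higher direction. The 1 higher gene was RPL43A, at 21.8 FPKM in SET5 Y402A against 14.9 in WT (log2 ratio 0.52), a gene of low level whose ratio rests on few FPKM. The lowest were RPS9A (-0.31) and RPL8A (-0.29). Set directly against set5∆, SET5 Y402A had a median log2 ratio of -0.04, with 104 genes lower and 31 higher, though 71 lower and 64 higher after rescaling to the same total. None was 20% lower or 25% higher, against 2.8% of all features lower and 5.47% higher. None was past 2-fold in that comparison, which 0.321% and 0.826% of all features were. Its highest ratio was that of RPL43A (0.29) and its lowest those of RPS21A (-0.22) and RPS9A (-0.20).

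The double deletion was then set against each single deletion. In set1∆ set5∆ against set1∆ the ribosomal protein genes had a median log2 ratio of -0.19, against 0.00 for all features, and 134 of 135 were lower as deposited, 125 after rescaling to the same total and 78 with quantile-normalized values. The deposited ratios lay between -0.36 and 0.06, so that only 3 genes were at least 20% lower, or 2.22%, close to the 2.46% of all features. At least 25% higher was 0, against 3.94%. The 3 were RPS22B (-0.36), RPL7B (-0.34) and RPS30B (-0.33), and the 1 higher gene was RPL4A (0.06). In this comparison 0.352% and 0.566% of all features were at least 2-fold lower and higher, and 0 ribosomal protein genes.

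Against set5∆ the double deletion had a median of -0.30 as deposited, -0.07 after rescaling to the same total and 0.01, the opposite sign, with quantile-normalized values. As deposited 134 of 135 genes were lower and 60 at least 20% lower, or 44.4%, against 15.1% of all features. None was 25% higher, against 18.7% of all features, and none was past 2-fold, against 1.07% lower and 2.86% higher. RPS9A (-0.64), RPL22B (-0.57), RPL31B (-0.56), RPL7B (-0.55) and RPL36A (-0.51) were lowest, and RPL9B was the 1 higher gene, at 1384 FPKM in set1∆ set5∆ against 1359 in set5∆ (0.03).

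The log2 ratio of the double deletion minus the sum of those of both single deletions, all relative to WT, describes how far it departs from an additive result. That difference had a median of -0.18 over the ribosomal protein genes as deposited, -0.05 after rescaling to the same total and 0.02, the opposite sign, with quantile-normalized values. The deposited values gave -0.00 over all features, and a difference below 0 for 131 of 135 genes. It was at least 0.32 below 0 for 15 genes, or 11.1%, near the 8.56% of all features, and at least 0.32 above 0 for none, against 6.91%. At 2-fold the background was 1.22% lower and 0.78% higher, with 0 ribosomal protein genes in either direction. RPS30B (-0.54) and RPL43A (-0.53) were lowest and RPL4A (0.13), RPL4B (0.09) and RPP0 (0.08) highest. The comparisons with WT share the WT column, and the last 3 share the double deletion, so they are not independent of each other.

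The medians of both subunits were nearly equal in every comparison. The median log2 ratio of the large and of the small subunit was -0.31 and -0.30 in set1∆ set5∆, -0.13 and -0.11 in set1∆, -0.01 and -0.01 in set5∆, and -0.06 and -0.07 in SET5 Y402A. In none of the 8 comparisons were the medians of the subunits more than 0.02 apart. In set1∆ set5∆ 36 of 79 large-subunit and 25 of 56 small-subunit genes were at least 20% lower than in WT as deposited, against 12.8% of all features. The SD over genes was 0.14 in the large and 0.09 in the small subunit, and the genes at the ends of the wider large-subunit range were RPL22B, RPL7B, RPL15B and RPL43A. Share of the total FPKM was 14.5% for the large and 15.1% for the small subunit in set1∆ set5∆, against 15.6% and 16.3% in WT.

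The 5 stalk genes encode Rpp0, which anchors the stalk, and the acidic proteins P1 and P2 that recruit translation factors. They had a median of -0.34 in set1∆ set5∆, beside -0.30 for all ribosomal protein genes, and of -0.21 in set1∆, beside -0.12. RPP0 (-0.31) and RPP1A (-0.28) had the lowest stalk ratios in set1∆. All 5 had lower deposited values than in WT in both strains, although RPP1B and RPP2B were above WT in set1∆ set5∆ with quantile-normalized values, and RPP1B was above WT in set1∆ after rescaling to the same total. RPP0 stood at 3259.7 FPKM in set1∆, 3753 in set5∆, 3561 in SET5 Y402A and 3196 in set1∆ set5∆, against 4049 in WT. RPP1A, at 5622 FPKM in set1∆, 6577 in set5∆, 6513 in SET5 Y402A and 4912 in set1∆ set5∆, against 6839.8 in WT, had the lowest stalk ratio in set1∆ set5∆ (-0.48), while RPP1B stood at 4751 FPKM there against 5627 in WT (-0.24).

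RPL40A, RPL40B and RPS31 are made as fusions of ubiquitin to a ribosomal protein, and so supply both. In set1∆ set5∆ all 3 were at least 20% lower than in WT as deposited, with log2 ratios of -0.37, -0.44 and -0.40. The same held for 45.2% of all ribosomal protein genes and 12.8% of all features. RPS31 stood at 14398 FPKM in set1∆, 17209.7 in set5∆, 16660.4 in SET5 Y402A and 12529.6 in set1∆ set5∆, against 16532 in WT. In the single mutants none of the 3 reached that threshold, which 3.70% of all ribosomal protein genes did in set1∆ and none in set5∆ or SET5 Y402A. RPL10, which is placed late in assembly before the subunits join, stood at 4284 FPKM in set1∆, 4591 in set5∆, 4585 in SET5 Y402A and 3768 in set1∆ set5∆, against 4507 in WT. RPS3, which sits where mRNA enters, had 4022 FPKM in set1∆ against 4015 in WT, and 3448 FPKM in set1∆ set5∆, a log2 ratio of -0.22 as deposited and 0.07 with quantile-normalized values. Single-copy genes (n = 19) had a median of -0.26 in set1∆ set5∆ against WT and duplicated genes (n = 116) one of -0.31, and in set1∆ the medians were -0.11 and -0.12.

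The A and B copies of a pair were compared within each strain, where a constant factor between strains cancels but quantile normalization does not. In WT the A copy had the higher level in 36 of 58 pairs, and the copies differed by more than 2-fold in 20 pairs and more than 8-fold in 5. The A copy was the higher one in 34 pairs in set1∆, 35 in set5∆, 34 in SET5 Y402A and 34 in set1∆ set5∆. The order of the copies was that of WT in 56 pairs in set1∆, 57 in set5∆, 56 in SET5 Y402A and 56 in set1∆ set5∆. The dominance of a copy was therefore largely the same in all 5 strains. RPL15A had the largest A share in WT, 98.2% of the pair, followed by RPL7A with 90.1%, RPS14A with 89.0% and RPS22A with 88.6%. RPL43A had the smallest share, 0.366%, followed by RPS9A with 8.67%, RPL33A with 28.1%, RPL12A with 29.5% and RPS27A with 29.7%. The level of RPL43A, 14.9 FPKM in WT, is unusually low for these genes. The gene models behind the values are not given, and whether so low a value reflects the true level of its mRNA was not tested.

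**Figure D2:**
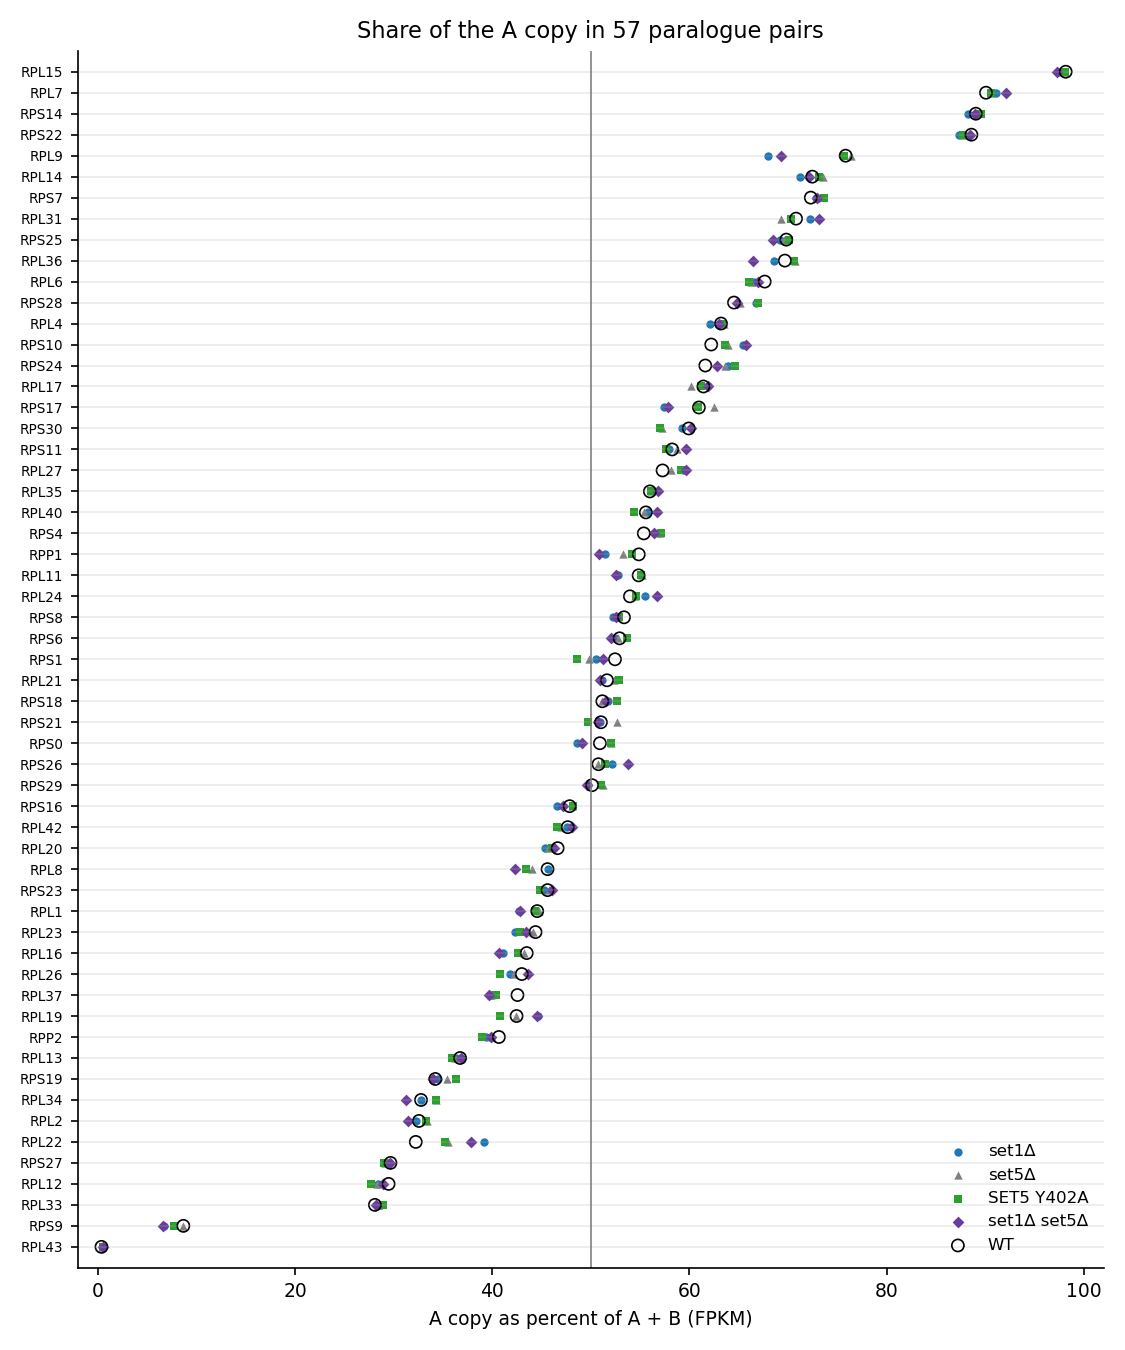
FPKM of the A copy as a percent of the sum of A and B (x axis) for 57 of the 58 paralogue pairs, ordered by the share in WT (y axis), with 1 symbol per strain and WT as open circles. Most symbols of a pair lie together, and RPL9 and RPL22 show the widest separation of set1∆ and set1∆ set5∆ from WT.

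As groups the A and B copies had similar ratios to WT. The 58 A copies had a median log2 ratio of -0.33 in set1∆ set5∆ and the 58 B copies one of -0.30. At least 20% lower as deposited were 32 A copies and 22 B copies, against 12.8% of all features. In set1∆ the medians were -0.14 and -0.12. The change of log2(A/B) within a pair had a median absolute size of 0.06 in set1∆ set5∆ and 0.08 in set1∆, against 0.04 in set5∆ and 0.07 in SET5 Y402A. A change of at least 0.32 in either direction was found in 6 of 58 pairs in set1∆ set5∆ (10.3%), 5 in set1∆ (8.62%), 0 in set5∆ and 1 in SET5 Y402A (1.72%), each against WT. Among all features, ratios of single genes passed 0.32 in 12.8% lower and 18.6% higher in set1∆ set5∆, and in 10.4% and 16.3% in set1∆. A ratio of a single gene is not the same measure as a change between copies, and no pairs outside the ribosome were compared. Against set5∆, 4 pairs passed in set1∆ set5∆ (6.9%), and none did in set1∆ set5∆ against set1∆, in SET5 Y402A against set5∆ or in the departure from additivity as deposited. With quantile-normalized values 4 pairs passed in set1∆ set5∆ against WT, 4 in set1∆ against WT, 3 in set1∆ set5∆ against set1∆ and 5 in the departure. The 5 pairs of set1∆ were RPL9, RPL15, RPS9, RPL43 and RPL22, and all 5 were among the 6 of set1∆ set5∆, with RPL7 as the sixth.

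The coding sequences of the pairs named above, read from the RefSeq genome R64, are similar but can be told apart. For each of 3 pairs the stretch of 60 coding bases where the copies differ most is shown, with the differing bases in capitals. These stretches are thus not typical of the pairs. Over the whole aligned coding region the copies differ at 78 of 369 positions in RPL22, 36 of 576 in RPL9 and 54 of 594 in RPS9. RPL22 is 78.9% identical between its copies, RPL9 93.8% and RPS9 90.9%. Positions are coding bases counted from the start codon, 109 to 168 in RPL22, 514 to 573 in RPL9 and 220 to 279 in RPS9.
RPL22A: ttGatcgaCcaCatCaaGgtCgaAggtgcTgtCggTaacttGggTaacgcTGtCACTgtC
RPL22B: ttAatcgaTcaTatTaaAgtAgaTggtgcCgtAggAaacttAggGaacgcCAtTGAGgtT
RPL9A: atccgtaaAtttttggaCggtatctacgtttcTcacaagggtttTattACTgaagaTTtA
RPL9B: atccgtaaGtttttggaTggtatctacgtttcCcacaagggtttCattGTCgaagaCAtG
RPS9A: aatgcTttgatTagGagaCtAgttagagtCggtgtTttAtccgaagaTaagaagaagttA
RPS9B: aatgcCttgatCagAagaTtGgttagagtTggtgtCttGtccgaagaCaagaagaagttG
The stretch of RPL22 holds 19 differing bases and those of RPL9 and RPS9 hold 10 each. All 50-base sequences of the RPL22 and RPL43 coding regions occur once in the genome, as do 95.05% of those of RPS9A, 88.2% of RPL15A and 86.0% of RPL9A, but only 43.1% of RPL7A.

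RPL9 had the largest shift between copies in set1∆. RPL9A (YGL147C, chromosome VII) stood at 3502 FPKM in set1∆, 4386 in set5∆, 4255 in SET5 Y402A and 3119.7 in set1∆ set5∆, against 4528 in WT. RPL9B (YNL067W, chromosome XIV) stood at 1654 FPKM in set1∆, 1359 in set5∆, 1368 in SET5 Y402A and 1384 in set1∆ set5∆, against 1442 in WT. The A copy was lowest in the 2 strains without SET1 and the B copy was highest in set1∆, so that the A share was 67.9% in set1∆ and 69.3% in set1∆ set5∆, against 75.8% in WT, while it was 76.3% in set5∆ and 75.7% in SET5 Y402A. The change of log2(A/B) was -0.57 in set1∆ and -0.48 in set1∆ set5∆, each against WT.

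RPL22 shifted the other way. RPL22A (YLR061W, chromosome XII) stood at 329.7 FPKM in set1∆, 355 in set5∆, 358 in SET5 Y402A and 264 in set1∆ set5∆, against 363 in WT, beside the values of RPL22B (YFL034C-A, chromosome VI) given above. Its A share was 39.2% in set1∆, 35.6% in set5∆, 35.2% in SET5 Y402A and 37.8% in set1∆ set5∆, against 32.2% in WT. All 4 mutants thus had a larger A share than WT, with changes of log2(A/B) of 0.44, 0.21, 0.19 and 0.36 in that order. The sum of both copies was 698 FPKM in set1∆ set5∆ against 1127 in WT, a log2 ratio of -0.69, the lowest among the 77 proteins. RPL22A has one of the lowest WT levels of all ribosomal protein genes. Whether that level reflects the true amount of its mRNA was not tested, and the A shares and the sum rest on it.

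The other 4 pairs had 1 copy at a low level. RPS9B, the dominant copy, stood at 5176 FPKM in set1∆, 5438 in set5∆, 5383 in SET5 Y402A and 4674 in set1∆ set5∆, against 5883 in WT, and the share of RPS9A was 6.68% in set1∆ and 6.62% in set1∆ set5∆, against 8.67% in WT. RPL15A stood at 4755 FPKM in set1∆, 5499 in set5∆, 5902 in SET5 Y402A and 3919.8 in set1∆ set5∆, against 5205 in WT, and RPL15B at 126 FPKM in set1∆, 113 in set5∆, 116 in SET5 Y402A and 110.4 in set1∆ set5∆, against 97.4 in WT. RPL15B was thus higher in all 4 mutants than in WT, and the change of log2(A/B) was -0.50 in set1∆ and -0.59 in set1∆ set5∆. RPL43A was also higher in all 4 mutants as deposited, but not in set1∆ set5∆ with quantile-normalized values, with 20.2 FPKM in set1∆, 17.6 in set5∆, 21.8 in SET5 Y402A and 16.1 in set1∆ set5∆, against 14.9 in WT. Its partner RPL43B stood at 3924 FPKM in set1∆, 4484 in set5∆, 4509 in SET5 Y402A and 3193 in set1∆ set5∆, against 4059 in WT. The change of log2(A/B) of RPL43 was 0.46 in set1∆, 0.37 in SET5 Y402A and 0.45 in set1∆ set5∆. With a pseudocount of 10 FPKM, none of the pairs passed 0.32 in SET5 Y402A. RPL7A stood at 3660.2 FPKM in set1∆, 3927 in set5∆, 3799.6 in SET5 Y402A and 3291 in set1∆ set5∆, against 4276 in WT, and its share was 92.2% in set1∆ set5∆ against 90.1% in WT (change 0.37). RPL7A and RPL7B each overlap a noncoding gene in the annotation, and share more than 50% of their 50-base sequences with other loci, so their split is less certain.

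**Figure D3:**
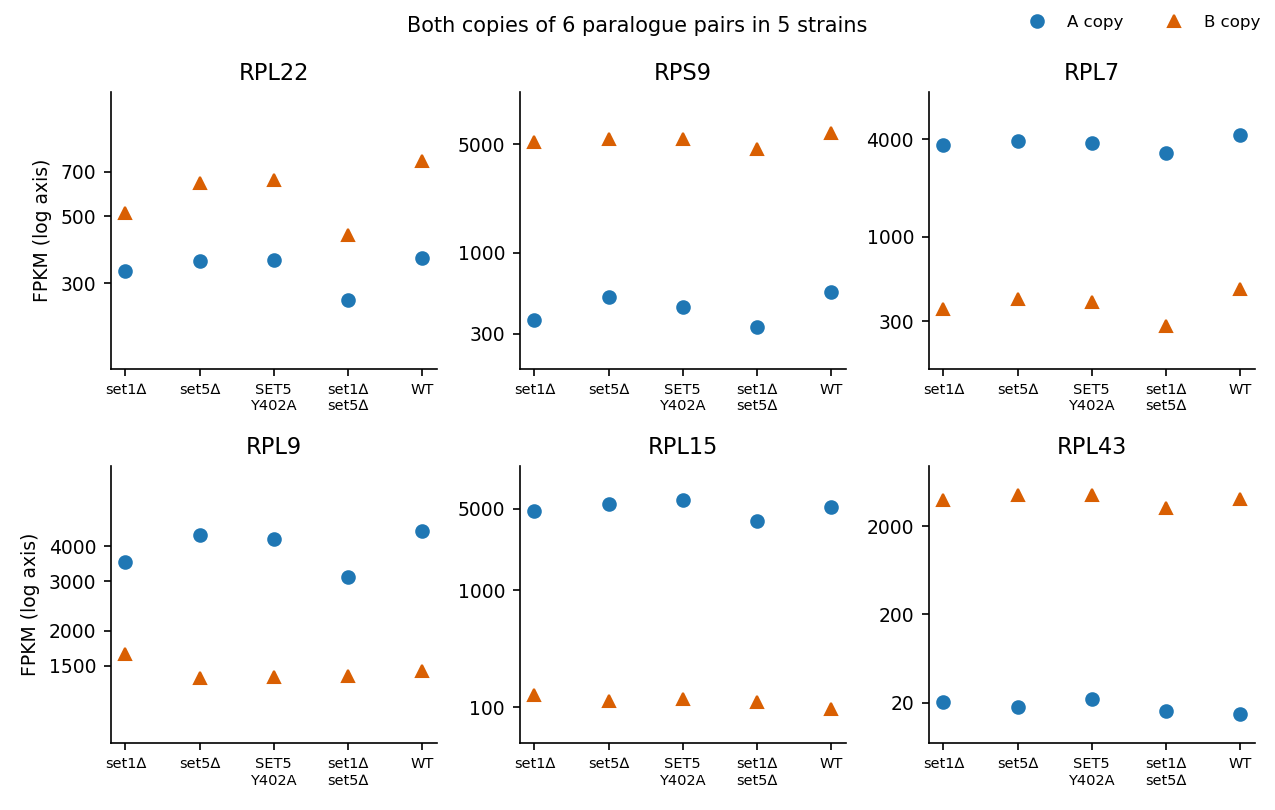
FPKM on a log axis (y axis) of the A copy (circles) and the B copy (triangles) of 6 pairs in 5 strains (x axis), with 1 value per point. RPL22B, RPS9A and RPL7B are lowest in set1∆ set5∆ and highest in WT, RPL9A is lowest in the strains without SET1, and RPL15B and RPL43A are lowest in WT.

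Pairs whose copies are nearly identical show how much of such a split rests on few bases. RPL1A and RPL1B, for a protein of the stalk opposite the acidic one, are 99.4% identical over the coding region and differ at 4 bases. Of these, 2 lie in the first 60 bases, shown here as a 60-base stretch with the most differences between the copies (differing bases in capitals).
RPL1A: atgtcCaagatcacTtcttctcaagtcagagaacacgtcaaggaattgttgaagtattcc
RPL1B: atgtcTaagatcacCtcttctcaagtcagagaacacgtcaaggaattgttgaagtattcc
The share of RPL1A was 42.8% in set1∆, 44.8% in set5∆, 44.3% in SET5 Y402A and 42.9% in set1∆ set5∆, against 44.6% in WT. Of the 50-base sequences of each copy 19.0% occur once in the genome. In all, 14 of the 135 genes had less than 50% unique sequence, among them RPL35A, RPL35B, RPL4A, RPL4B, RPS6A and RPS6B, and how reads common to both copies were divided is not stated. Restricted to the 72 genes with at least 95% unique sequence, the median in set1∆ set5∆ against WT was -0.29. Of the 72 genes, 33 were at least 20% lower as deposited, against 12.8% of all features, and 2 pairs, RPL22 and RPL43, had a changed ratio.

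The FPKM of both copies were summed per protein, with single-copy genes taken as they are. Over the 77 proteins the sum was lower in set1∆ set5∆ than in WT for all 77 as deposited, for 74 after rescaling to the same total and for 48 with quantile-normalized values. The deposited log2 ratios had a median of -0.32 and a range of -0.69 to -0.20. In set1∆ the sum was lower for 73 of 77 as deposited (median -0.12), for 45 after rescaling to the same total and for 42 with quantile-normalized values. In set5∆ it was lower for 44 as deposited (median -0.01) and for 56 under either other scaling, and in SET5 Y402A for 56 as deposited (median -0.05), 55 after rescaling and 58 with quantile-normalized values. No protein had a deposited sum at or above that of WT in set1∆ set5∆. In WT the sums ranged between 897 FPKM for RPL28 and 41124 FPKM for RPS29, with a median of 8179 FPKM, and RPL22 was the lowest of the pairs. RPL28, with 450 coding bases, is not a very short gene, and whether its low value reflects the true level of its mRNA was not tested. The RPS29 genes are among the very short ones, whose FPKM depends strongly on the length correction. Sums of different proteins are therefore not a direct measure of their relative mRNA supply.

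Some ribosomal proteins are known to act on their own mRNA, and these genes were set side by side. RPL30, whose protein blocks the splicing of its own transcript, stood at 13213 FPKM in set1∆, 14462 in set5∆, 14162 in SET5 Y402A and 11253 in set1∆ set5∆, against 14575 in WT. RPS14B, held down by Rps14 bound to its transcript, stood at 621 FPKM in set1∆, 609 in set5∆, 551 in SET5 Y402A and 523 in set1∆ set5∆, against 646 in WT, and its partner RPS14A at 4679.7 FPKM in set1∆, 4963 in set5∆, 4754 in SET5 Y402A and 4230.3 in set1∆ set5∆, against 5254 in WT. The RPS14 pair kept an A share between 88.3% and 89.6% in the 5 strains. RPS28B, whose mRNA is destabilized by its own protein, stood at 9436 FPKM in set1∆ set5∆ against 11391 in WT (log2 ratio -0.27), and RPS28A at 17394 against 20714 FPKM (-0.25). RPL2B, at 4494 against 5113 FPKM, had a ratio of -0.19 and RPL2A one of -0.26. Set beside them, with no such action stated here, RPL12A and RPL12B, for a protein at the stalk base, had ratios of -0.35 and -0.31. The ratios of these genes lay between -0.37 and -0.19. RPL22B and RPS9A, which are also described as regulated through their introns, had the lowest ratios given above.

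Genes with and without an intron had similar ratios. The 89 genes with an intron in the coding region had a median log2 ratio of -0.31 in set1∆ set5∆ against WT and the 46 without one -0.30, and in set1∆ the medians were -0.12 and -0.13. RPS22B, with an intron that overlaps a noncoding gene in the annotation, was the lowest gene in set1∆ set5∆ against set1∆, with 773 against 991 FPKM. Its partner RPS22A, without an intron, stood at 5952 FPKM in set1∆ set5∆ against 6848 in set1∆ (log2 ratio -0.20). The libraries were made with a kit that does not mark strand. The noncoding gene lies on the same strand as RPS22B, so strand alone would not separate their reads in any case. How reads from the overlap were assigned is not stated.

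Upstream regions were searched for the core of the Rap1 site, since Rap1 is a general factor at these promoters. The window ran from 449 to 150 bases before the start codon in RefSeq R64, and the motif was CACCC, any pair of bases, and ACA, on either strand. It was found in 25 of the 135 genes (18.5%) and in 1.6% of 6000 windows of the same length before nuclear protein-coding genes, these 135 included. GACGC, a core of the Fhl1 site, was in 34.8% of the ribosomal protein genes and 20.7% of all windows, and the Abf1 motif (TCA, 6 bases of any kind, and ACG) in 14.8% and 15.3%. A match is a description of the letters only, and the window misses sites nearer the gene. Genes with the Rap1 core had a median log2 ratio of -0.30 in set1∆ set5∆ against WT and those without it -0.31, and in set1∆ the medians were -0.12 and -0.12. Genes with GACGC had -0.30 and those without -0.32 in set1∆ set5∆.

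The windows of RPL22B, which had the lowest ratio, and of RPS16A, which shares its upstream region with a second ribosomal protein gene, are shown with the Rap1 core in capitals. They are given 5′ to 3′ toward the gene, on the minus strand at chrVI:65082-65381 for RPL22B and on the plus strand at chrXIII:551479-551778 for RPS16A, both in R64, which may not be the build behind the table.
RPL22B: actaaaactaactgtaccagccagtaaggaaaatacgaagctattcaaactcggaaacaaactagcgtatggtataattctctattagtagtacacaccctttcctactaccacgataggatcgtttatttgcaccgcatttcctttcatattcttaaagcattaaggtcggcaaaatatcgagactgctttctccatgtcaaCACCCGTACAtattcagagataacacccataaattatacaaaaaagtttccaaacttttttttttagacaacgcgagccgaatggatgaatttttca
RPS16A: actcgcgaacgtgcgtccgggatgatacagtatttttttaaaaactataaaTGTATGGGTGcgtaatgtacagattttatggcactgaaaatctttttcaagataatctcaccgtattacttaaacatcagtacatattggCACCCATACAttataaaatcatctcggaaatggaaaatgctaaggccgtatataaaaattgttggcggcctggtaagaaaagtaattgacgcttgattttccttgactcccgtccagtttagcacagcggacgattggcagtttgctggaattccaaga
RPL22B has 1 match, and RPS16A has 2 that face opposite ways. RPS16A and RPL13B are transcribed away from each other with 720 bases between their coding regions, and both matches also lie in the window of RPL13B. RPS16A stood at 4348 FPKM in set1∆, 4771 in set5∆, 4596 in SET5 Y402A and 3958 in set1∆ set5∆, against 5133 in WT, a log2 ratio of -0.38 in set1∆ set5∆, and RPL13B at 3191 FPKM in set1∆, 3188 in set5∆, 3316 in SET5 Y402A and 2791 in set1∆ set5∆, against 3400.4 in WT, a ratio of -0.28. The pair formed by their paralogues, RPS16B and RPL13A, is also divergent, and had ratios of -0.33 and -0.28. Among other divergent neighbours, RPL24A and RPL30 had ratios of -0.29 and -0.37, RPS22A and RPL39 -0.39 and -0.21, and RPS15 and RPP2A -0.20 and -0.34 in set1∆ set5∆ against WT. Within each of these 5 neighbour pairs both genes had lower deposited values than in WT, as did most ribosomal protein genes.

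Coding length moved with the ratio in several comparisons. In set1∆ set5∆ against set1∆ Spearman's rho between coding length and the log2 ratio was 0.48 across the 135 genes, which share the same 2 columns. The median ratio was -0.23 for the 17 genes under 300 bases, -0.20 for the 86 genes of 300 to under 600 bases and -0.14 for the 32 genes of at least 600 bases. Among the longest genes the ratios were high, with RPL4A at 0.06, RPL4B at -0.00, RPP0 at -0.03 and RPL5, whose protein carries the 5S ribosomal RNA, at -0.05, while RPL3, the longest of all with 1164 bases, stood at -0.12. RPL4A had 3009 FPKM in set1∆ set5∆ against 2894 in set1∆, and RPL4B 1765 against 1766 FPKM. The rho was 0.53 for the departure from additivity, -0.44 in set5∆ against WT, -0.34 in SET5 Y402A, -0.29 in set1∆ and 0.06 in set1∆ set5∆ against WT. In set5∆ the short genes had a median of 0.05 and those of at least 600 bases one of -0.07, and in SET5 Y402A the medians were 0.00 and -0.10.

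**Figure D4:**
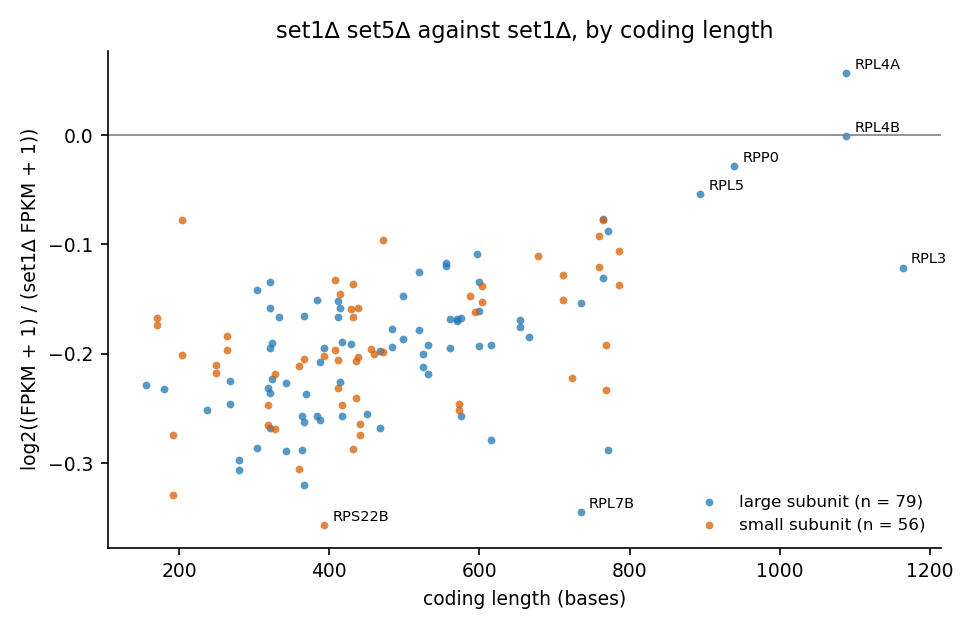
Log2 ratio of FPKM + 1 in set1∆ set5∆ against set1∆ (y axis) by coding length in bases (x axis) for 79 large-subunit and 56 small-subunit genes, with the longest and the lowest genes named. The ratio is higher in longer genes, with a median of -0.23 under 300 bases and -0.14 from 600 bases on.

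Length moved with the ratio outside the ribosome as well. Other coding genes of at least 1000 FPKM in WT were split at 600 bases of annotated gene length, and the ribosomal protein genes at 600 bases of coding length. These measures can differ for genes with an intron, which many ribosomal protein genes have. In set1∆ set5∆ against set1∆ the ribosomal protein genes under 600 bases (n = 103) had a median of -0.20, against -0.11 for the other abundant genes under 600 bases (n = 79). At 600 bases or more the ribosomal protein genes (n = 32) had a median of -0.14, against 0.03 for the other abundant genes (n = 52). Both comparisons were added after the values were seen, and the part of length in the lower ribosomal protein values was not tested.

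A list of regulators of ribosomal protein genes was not lower as a group. It pools genes of unlike roles, among them CRF1, STB3, TOD6, DOT6, RRP7 and UTP22, so its count and median give no direction of control. Of 15 regulators 12 were higher in set1∆ set5∆ than in WT and 3 lower, with a median log2 ratio of 0.12, which was 0.31 after rescaling to the same total. HMO1, a high-mobility-group protein bound at many ribosomal protein promoters, stood at 310.3 FPKM in set1∆, 326 in set5∆, 352 in SET5 Y402A and 224 in set1∆ set5∆, against 415 in WT, a log2 ratio of -0.88 in set1∆ set5∆. HMO1 was thus lower in all 4 mutants and lowest in the double deletion. IFH1, for a coactivator of these genes, stood at 49.9 FPKM in set1∆, 35.5 in set5∆, 32.5 in SET5 Y402A and 53.3 in set1∆ set5∆, against 31.7 in WT, a log2 ratio of 0.73 in set1∆ set5∆ and 0.64 in set1∆. Both genes kept these directions in set1∆ and set1∆ set5∆ under every scaling tried. RAP1 stood at 52.7 FPKM in set1∆ set5∆ against 54.7 in WT, and FHL1, the partner of Ifh1, at 20.8 against 19.4 FPKM. SFP1, which carries nutrient signals, stood at 46.0 against 39.9 FPKM, and the TOR kinase genes TOR1 and TOR2 had ratios of 0.13 and 0.14. Whether any of these levels bears on the ribosomal protein genes was not tested.

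Other lists of the translation machinery had lower medians in set1∆ against WT than in set1∆ set5∆ against set1∆. Initiation factors (n = 25) had medians of -0.16 in set1∆, -0.04 in set5∆, -0.10 in SET5 Y402A and -0.17 in set1∆ set5∆, and 22 of 25 were lower in set1∆ set5∆ than in WT. Ribosome-associated factors (n = 10) had -0.26 in set1∆ and -0.25 in set1∆ set5∆, with ASC1, a scaffold on the small subunit, at 3945 FPKM in set1∆, 4837 in set5∆, 4386 in SET5 Y402A and 3633 in set1∆ set5∆, against 4971 in WT. Elongation and termination factors numbered 11 after TEF1 and TEF2, which are listed at 0 in set1∆ set5∆, were left out, and had -0.19 in set1∆ and -0.14 in set1∆ set5∆. In set1∆ set5∆ against set1∆ these 3 lists had medians of -0.03, -0.02 and 0.06, beside -0.19 for the ribosomal protein genes. After rescaling to the same total the medians of these 3 lists in set1∆ set5∆ against WT were 0.04, -0.04 and 0.06, so that the signs of the first and the third turned. Glycolysis (n = 18), taken as an abundant group with no ribosomal role, had -0.31 in set1∆, 0.13 in set5∆, 0.10 in SET5 Y402A and -0.29 in set1∆ set5∆, and 0.02 in set1∆ set5∆ against set1∆.

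Factors dedicated to ribosomal proteins before assembly had deposited medians near 0 in the double deletion. The 10 chaperones and importer genes, such as RRB1 for Rpl3 and SQT1 for Rpl10, had medians of -0.05 in set1∆, -0.12 in set5∆, -0.22 in SET5 Y402A and -0.02 in set1∆ set5∆. RRB1 stood at 287 FPKM in set1∆, 279.7 in set5∆, 254 in SET5 Y402A and 289 in set1∆ set5∆, against 303 in WT. All 10 were lower than WT in set5∆ and in SET5 Y402A, while 5 were lower and 5 higher in set1∆ set5∆, where all 10 were higher after rescaling to the same total. The 10 enzymes that methylate or otherwise modify ribosomal proteins had medians of -0.06, -0.06, -0.16 and -0.03 in set1∆, set5∆, SET5 Y402A and set1∆ set5∆.

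**Figure D5:**
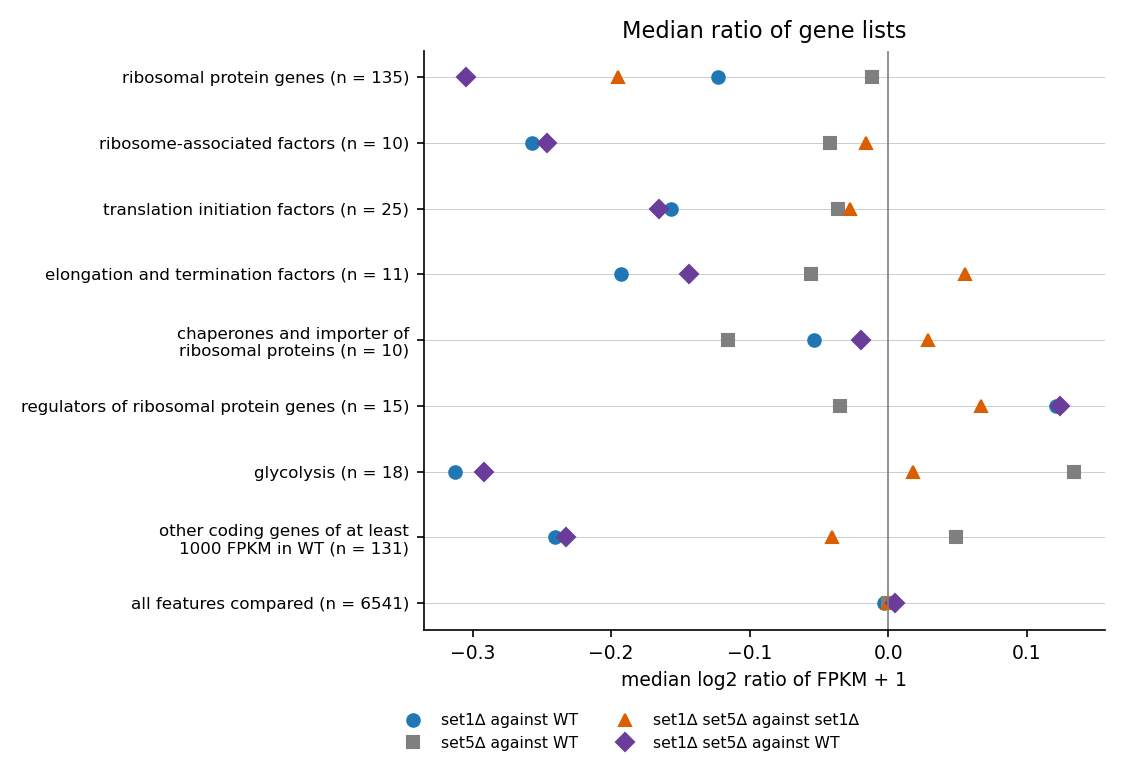
Median log2 ratio of FPKM + 1 (x axis) of gene lists (y axis, with the number of genes) in 4 comparisons, each shown by its own symbol. The ribosomal protein genes have the lowest median in set1∆ set5∆ against WT (-0.30), where glycolysis lies close to them, and against set1∆ (-0.19). In set1∆ against WT glycolysis, the ribosome-associated factors, the elongation and termination factors and the initiation factors lie lower than the ribosomal protein genes.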

How the data were processed

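RNA was extracted with the MasterPure Yeast kit and libraries were made with the Illumina TruSeq RNA v2 kit, per the labels' protocols. The deposited table gives FPKM, fragments scaled to transcript length and library size, in 1 combined column per strain, and was taken as such from its values and from the submitters' processing notes, which list Cufflinks 2.0.2, Cuffdiff, TopHat2 2.0.5, R 2.15.1 and FastQC without their roles. The genome build, the gene models and how the 2 replicates of a strain were combined are not given in these sources. The depth is unknown, so no interval or detection limit is given.

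Ratios were log2((FPKM + 1) / (reference FPKM + 1)) over the 6541 features that averaged 1 FPKM or more. Thresholds were 2-fold and, since the differences are small, 20% lower or 25% higher (0.32 on the log2 scale), and a pair was counted when log2(A/B) changed by at least 0.32. The code was checked on simulated data. Members and lists were chosen with earlier results of these data known. Genes were named as the 5 highest and lowest ratios or levels, the 3 pairs with the largest change in each direction, the 5 highest and lowest A shares and genes chosen from textbook knowledge; neighbours, ASC1, RRB1 and the promoter examples were picked after their values were seen. For 1 of the 58 pairs the values are left out of the text and the plot of A shares, and are not reported here. Symbols, coding lengths, sequences and neighbours came from RefSeq R64, whose build may differ from that of the table. Alternatives were another pseudocount, filter, scaling between strains, and subset by unique sequence or coding length. Python 3.11.15, numpy 2.4.6, pandas 2.3.3, Biopython 1.88 and matplotlib 3.10.9 were used.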

Additional observations from a re-analysis of the deposited data

How the results depend on the processing

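Other pseudocounts and filters on low values, and centring on the median of all features, changed none of the 24 medians by 0.1 log2 or more, whereas the scaling between strains changed several. Rescaled to the same total, the median log2 ratio of the ribosomal protein genes was -0.016 in set1∆ against WT, -0.101 in set1∆ set5∆ against WT and -0.066 against set5∆, and the departure from additivity was -0.047. The genes at least 20% lower then numbered 2 in set1∆, 4 in set1∆ set5∆ against WT, 0 against set1∆, 3 against set5∆ and 2 in the departure, where the shares of all features were 5.59%, 4.18%, 1.66%, 4.78% and 4.95% in that order, and 1 gene was higher in set1∆ set5∆ against WT and 1 in SET5 Y402A against set5∆, against 34.7% and 6.35% of all features. Quantile-normalized values gave medians of -0.012 in set1∆, -0.017 in set1∆ set5∆ against WT, -0.023 against set1∆, 0.013 against set5∆ and 0.020 for the departure, of which the values against set5∆ and for the departure have the opposite sign. The counts lower were 3 in set1∆, 4 in set1∆ set5∆ against WT, 3 against set5∆ and 3 in the departure, against 13.5%, 14.9%, 16.1% and 7.9% of all features, and 1 was higher in the departure, against 7.58%. Pairs with a changed ratio were 3 in set1∆ set5∆ against set1∆ and 5 in the departure, and the change of log2(A/B) of RPL43 in set1∆ set5∆ against set5∆ was -0.082, against 0.37 as deposited. Rescaled to the total of the features that are not members, an alternative chosen after seeing the data, the medians were -0.018 in set1∆, -0.147 in set1∆ set5∆ against WT and -0.101 against set5∆, the counts lower were 2, 6 and 4 in those comparisons, 0 against set1∆ and 3 in the departure, against 5.68%, 5.1%, 5.77%, 1.94% and 5.55% of all features, and 1 gene was higher in set1∆ set5∆ against WT and 1 in SET5 Y402A against set5∆, against 29.6% and 6.39%. Of the 135 genes, 4 are 2.96% and 6 are 4.44%, so that none of these shares exceeded that of all features. The cause of these shifts was not tested.

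Among the 72 genes with at least 95% unique sequence, of which fewer could pass, 2 were lower and 1 higher in set1∆, 33 lower in set1∆ set5∆ against WT, 1 against set1∆ and 32 against set5∆, and changed pairs numbered 2 in set1∆, 2 in set1∆ set5∆ against WT and 1 against set5∆. Of all features as deposited, 10.4% were lower and 16.3% higher in set1∆. Lower in set1∆ set5∆ were 12.8% against WT, 2.46% against set1∆ and 15.1% against set5∆. With a pseudocount of 10 FPKM, 1 gene was higher in set1∆ and 0 pairs changed in SET5 Y402A. Among the 118 genes of at least 300 coding bases, 1 was higher in set1∆, and SET5 Y402A had 0 higher genes and 0 changed pairs. No paired analysis was possible because the table holds 1 combined value per strain and its columns carry no replicate numbers, and for the same reason no replicate could be left out. The spread between replicates, and with it the precision of every ratio, is unknown.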
